A study of Mus musculus with 9 samples.

Results

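The genes described here are 10 members of the Notch and neuregulin pathways that act in the formation of the trabeculae, the muscle ridges of the developing ventricle. They were taken by name from a gene expression table of E18.5 mouse hearts that lists 24597 symbols. The 10 comprise the Notch ligands *Dll4* and *Jag1*, the receptors *Notch1* and *Notch2*, the target genes *Hey1*, *Hey2* and *Heyl*, the ligand *Nrg1* and its receptors *Erbb2* and *Erbb4*. Levels are given in TPM, a transcript abundance corrected for gene length and library total. All 10 were among the 13682 genes whose mean over the 9 libraries reached 1 TPM and which were tested.

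Notch receptors are activated by ligands on a neighbouring cell, after which their intracellular part is cut free by gamma-secretase and acts in the nucleus with the DNA-binding protein RBPJ on targets such as the Hey repressors. In the heart the endocardium, the inner lining of the ventricle, carries *Notch1* and *Dll4* and releases neuregulin, which reaches the ErbB4 and ErbB2 receptors on cardiomyocytes. Loss of *Nrg1*, *Erbb2* or *Erbb4* is known to prevent normal trabeculae in mice.

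Late-gestation hearts (E18.5) were collected from C57BL/6N mice in which the missense change R567W had been placed in *Ctcf* by CRISPR/Cas9 editing. *Ctcf* encodes a zinc-finger protein that organises chromatin loops. The groups were wild type, with 0 mutant alleles, heterozygous, with 1, and homozygous, with 2, and each was represented by 3 libraries. The mutation was present in every cell rather than in 1 cell type, each heart was a separate tube in the study's methods, and whole hearts were sequenced, so that fewer cells of a type and less RNA per cell cannot be told apart. The comparisons asked how far the levels of these genes differ between the genotypes.

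The libraries differed in ways that the genotype does not describe. TPM keeps no read depth, so counting error is unknown and every p-value measures the spread between libraries. The median of all genes lay higher in the mutants, by 0.23 on the log2 scale between homozygous and wild type. Mitochondrially encoded transcripts held 27.2, 27.8 and 24.5% of TPM in wild-type replicates 1 to 3. They held 23.4, 27.0 and 23.2% in the heterozygous and 22.4, 22.3 and 27.8% in the homozygous replicates. TPM is relative to the library total, and the part of this share in the displacement of all genes was not tested. All 10 cardiomyocyte markers were present in every library, with a summed level of 26306 to 35002 TPM, and all 10 endothelial markers were too, at 499 to 800 TPM. Markers of other organs stood out most in 3 libraries, the ones meant below by libraries with markers of other organs. Airway and lung markers summed to 2626 TPM in wild-type replicate 1 and to 1109 TPM in heterozygous replicate 1. They were at 52.3 TPM in homozygous replicate 1, at 38.4 TPM in wild-type replicate 2 and at 2.14 to 6.27 TPM in the rest. Those of liver summed to 4194 TPM in heterozygous replicate 1, to 171 TPM in wild-type replicate 1 and to 31.4 to 77.9 TPM elsewhere. Those of thymocytes summed to 771 TPM in homozygous replicate 3, where the other 8 libraries held 1.92 to 4.63 TPM of the thymocyte set. Leaving out the 3 libraries therefore does not remove all such transcripts. *Xist*, which is transcribed in female cells, was at 112 to 146 TPM in the heterozygous libraries, at 87.8 TPM in wild-type replicate 1 and at 123 TPM in homozygous replicate 1, and at 0.05 TPM or less in the other libraries. By this marker sex was therefore not balanced between the heterozygous group and the other groups. Wild-type and homozygous hearts each had a single library with *Xist*.

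The *Hey2* promoter is shown because the Hey genes are targets of RBPJ, and it was the 1 promoter of the 7 available for these genes to hold the RBPJ core letters. Promoters of *Hey1*, *Heyl* and *Nrg1* were not available, so *Hey2* was the only Hey gene examined. *Hey2* lies on chromosome 10, and the window runs from 250 bases before to 50 bases after its start in RefSeq (GRCm38.p6, chr10:30842734-30843033, minus strand). Capitals mark the letters GTGGGAA on either strand.

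Hey2: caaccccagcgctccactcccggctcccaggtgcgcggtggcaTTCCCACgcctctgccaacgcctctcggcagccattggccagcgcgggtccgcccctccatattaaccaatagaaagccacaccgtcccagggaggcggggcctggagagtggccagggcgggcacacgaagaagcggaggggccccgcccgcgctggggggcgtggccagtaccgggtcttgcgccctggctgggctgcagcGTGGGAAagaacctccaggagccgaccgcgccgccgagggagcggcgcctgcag

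The matches begin 207 and 4 bases before the start. At least 1 match was present in 6.38% of the 32851 promoters of the same length, and 0.256% held 2 or more. The E-box letters CACGTG, which are in 7.15% of all promoters, and the CTCF consensus, which is in 2.43%, were found in 0 of the 7. Among other genes of the pathway lists used below, 10 of the 87 with a promoter in the table held the RBPJ letters. That count is of genes, some with several promoters, whereas the 6.38% is of single promoters, so the shares are not directly comparable. A match is a stretch of letters and no measurement of binding.

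In wild-type hearts *Hey2* had the highest level of the 10 genes, at 32.6 ± 10.6 TPM (SD, n = 3), and *Nrg1* the lowest, at 2.98 ± 0.757 TPM (SD, n = 3). Between them came *Erbb2*, *Notch1*, *Hey1*, *Heyl*, *Notch2*, *Jag1*, *Dll4* and *Erbb4* in falling order. *Hey2* and *Erbb2* were the 1 pair of neighbours in this order whose wild-type ranges did not overlap. Genes farther apart in the order could still be separate, as were *Notch1*, at 9.71 to 18.18 TPM, and *Notch2*, at 5.13 to 8.02 TPM. In homozygous hearts *Hey2*, *Erbb2* and *Notch1* again held the first 3 places and *Erbb4* and *Nrg1* the last, and the neighbours *Hey2* and *Erbb2* and the neighbours *Notch1* and *Heyl* did not overlap. Over the 9 libraries the range of each gene was between 1.36-fold for *Hey1* and 2.96-fold for *Erbb4*.

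**Figure D1:**
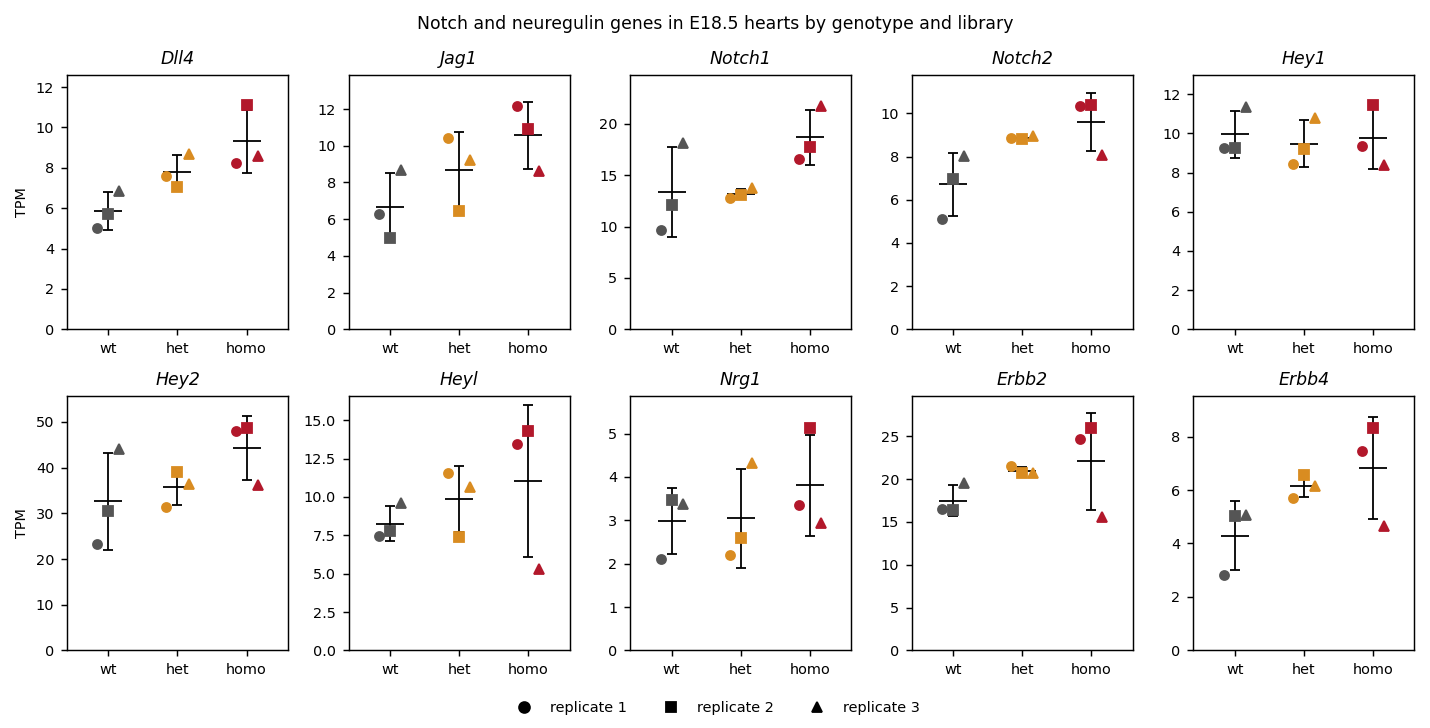
TPM of the 10 genes (y axes, each from 0) in wild-type (wt), heterozygous (het) and homozygous (homo) E18.5 hearts. Symbols are single libraries, horizontal bars are group means and error bars are the SD of 3 libraries. *Dll4* and *Notch2* lie above the wild type in all 3 homozygous libraries, whereas the *Hey1* groups overlap.

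The mean levels of both Notch ligands were higher in mutant than in wild-type hearts, where the median of all genes also lay higher in the mutants. Neither ligand passed the test. *Dll4*, the ligand of the endocardium and arteries, lies on chromosome 2 from 119325784 to 119335962 on the plus strand (GENCODE M21, mm10). Wild-type replicates 1 to 3 held 5.0, 5.70 and 6.87 TPM of it, the heterozygous libraries 7.61, 7.07 and 8.70 TPM and the homozygous libraries 8.22, 11.11 and 8.60 TPM. Every mutant library was above every wild-type library, while the heterozygous and homozygous libraries overlapped. The log2 change between homozygous and wild type was 0.59 ± 0.16 (SE, n = 3 per group), with an adjusted p of 0.110 by limma over all genes tested. Of its 31-base words, 4.80% were shared with other genes, mainly with *Gm14207* on the opposite strand, and whether the counting used strand is not given in the sources used here.

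*Jag1*, a ligand of smooth muscle and endothelium (chromosome 2, 137081456 to 137116644, minus strand), had the largest change of the 10. It was at 6.29, 4.99 and 8.68 TPM in wild type, at 10.41, 6.44 and 9.24 TPM in heterozygous and at 12.19, 10.91 and 8.60 TPM in homozygous hearts. Wild-type replicate 3 was just above homozygous replicate 3, so the groups overlapped. The log2 change between homozygous and wild type was 0.61 ± 0.22 (SE), with an adjusted p of 0.143. After median-ratio scaling, which divides each library by the median ratio of its genes to their geometric means, the groups did not overlap, with a highest wild-type level of 8.38 and a lowest homozygous level of 8.73 scaled TPM. Homozygous against heterozygous the log2 change was 0.26 ± 0.22 (SE), and 0.085 without heterozygous replicate 2.

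In heterozygous hearts *Notch1* lay inside the wild-type range and *Notch2* above it. *Notch1*, the main receptor of the endocardium (chromosome 2, 26457903 to 26516663, minus strand), was at 9.71, 12.12 and 18.18 TPM in wild type, at 12.75, 13.07 and 13.71 TPM in heterozygous and at 16.57, 17.78 and 21.71 TPM in homozygous hearts. The heterozygous libraries lay inside the wild-type range, and all 3 homozygous libraries lay above all heterozygous ones. Its log2 change was 0.49 ± 0.20 (SE) for homozygous against wild type (adjusted p = 0.166), 0.47 ± 0.20 for homozygous against heterozygous (adjusted p = 0.698) and 0.03 ± 0.20 for heterozygous against wild type. With *Xist* as a covariate for the unequal sex of the groups, the difference between homozygous and heterozygous was 0.19, and without wild-type replicate 1 the one between homozygous and wild type was 0.30. The highest *Notch1* value was in homozygous replicate 3, the library with thymocyte markers, and *Notch1* is also a gene of developing T cells. Without that library the log2 change against wild type was 0.38, with an adjusted p of 0.236. Without all 3 libraries that stood out for markers of other organs the change was 0.20. The part of those transcripts in the result was not tested. Of the 31-base words of *Notch1*, 9.40% were shared, mainly with *0610009E02Rik* on the opposite strand.

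*Notch2*, a receptor of endocardial and mural cells (chromosome 3, 98013527 to 98150361, plus strand), was at 5.13, 6.97 and 8.02 TPM in wild type. It was at 8.85, 8.80 and 8.95 TPM in heterozygous and at 10.35, 10.39 and 8.06 TPM in homozygous hearts. No mutant library fell within the wild-type range, although the lowest homozygous library, at 8.06 TPM, was close to the highest wild-type one, at 8.02 TPM. The log2 change was 0.47 ± 0.17 (SE) between homozygous and wild type (adjusted p = 0.140). For heterozygous against wild type it was 0.37 ± 0.17 (adjusted p = 0.672), and 0.22 without wild-type replicate 1. After median-ratio scaling the mutant libraries still lay above all wild-type ones. Of the 31-base words of *Notch2*, 4.28% were shared, mainly with *Gm42820* on the same strand.

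Of the target genes, *Hey2* had its highest mean in homozygous hearts, where the libraries overlapped those of wild type, and the means of *Hey1* were close to each other. *Hey2*, a repressor of the compact ventricular muscle (chromosome 10, 30832359 to 30842801, minus strand), was at 23.26, 30.52 and 44.11 TPM in wild type, at 31.43, 39.11 and 36.45 TPM in heterozygous and at 48.09, 48.73 and 36.28 TPM in homozygous hearts. The groups overlapped through wild-type replicate 3 and homozygous replicate 3. Its log2 change between homozygous and wild type was 0.47 ± 0.21 (SE), with an adjusted p of 0.201. Leaving out wild-type replicate 1, the lowest library, gave 0.25, whereas without replicate 3 of that group it was 0.70. *Hey1*, which is expressed in endocardium and atrial muscle (chromosome 3, 8663359 to 8667256, minus strand), was at 9.25, 9.26 and 11.36 TPM in wild type, at 8.42, 9.21 and 10.80 TPM in heterozygous and at 9.38, 11.46 and 8.41 TPM in homozygous hearts. The 3 groups covered nearly the same range, and the log2 change between homozygous and wild type was -0.03, with a 95% interval from -0.38 to 0.31. Its sign turned with the setting: it was 0.05 with library weights and -0.25 with median-ratio scaling. After that scaling the highest mutant library, at 10.03 scaled TPM, was below the lowest wild-type one, at 10.61.

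*Heyl*, a target gene of vascular mural cells (chromosome 4, 123233556 to 123249875, plus strand), varied more within the homozygous group than between genotypes. It was at 7.44, 7.75 and 9.59 TPM in wild type, at 11.53, 7.42 and 10.65 TPM in heterozygous and at 13.45, 14.33 and 5.33 TPM in homozygous hearts. The highest and the lowest of all 9 libraries were both homozygous. The lowest was homozygous replicate 3, in which fibroblast markers were also lowest, at 631 TPM against 831 to 1421 TPM elsewhere. Endocardial markers were lowest there too, at 59.1 TPM. Mural and smooth muscle markers summed to 461 TPM there. Their sum was lowest, at 415 TPM, in homozygous replicate 2, which held the highest *Heyl*. By mean log2(TPM + 1) the mural markers were lowest in replicate 3, at 4.43 against 4.66 in replicate 2. The log2 change between homozygous and wild type was 0.28 ± 0.31 (SE), and it was 0.69 without homozygous replicate 3 and 0.054 without homozygous replicate 2. The part of the cell types in this value was not tested.

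*Nrg1*, the neuregulin ligand (chromosome 8, 31814551 to 32884029, minus strand), was the lowest of the 10 genes in every genotype. It was at 2.11, 3.46 and 3.38 TPM in wild type, at 2.20, 2.6 and 4.33 TPM in heterozygous and at 3.35, 5.13 and 2.94 TPM in homozygous hearts. All 3 groups overlapped. Its log2 change between homozygous and wild type was 0.26 ± 0.26 (SE), with a 95% interval from -0.31 to 0.84, and was -0.02 after quantile normalization, so that no direction is given. Without homozygous replicate 2 it was 0.075. Of its 31-base words, 4.33% were shared, mainly with *Gm26578* on the opposite strand.

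The receptors of neuregulin did not pass the test, and their heterozygous libraries lay above those of wild type in TPM but overlapped them after median-ratio scaling. *Erbb4*, the receptor that binds neuregulin (chromosome 1, 68032186 to 69108059, minus strand), was at 2.81, 5.02 and 5.05 TPM in wild type, at 5.72, 6.55 and 6.14 TPM in heterozygous and at 7.45, 8.32 and 4.67 TPM in homozygous hearts. Homozygous replicate 3 lay within the wild-type range, while the other two lay above all other libraries. The log2 change was 0.56 ± 0.23 (SE) for homozygous against wild type (adjusted p = 0.174) and 0.46 ± 0.23 for heterozygous against wild type (adjusted p = 0.672). Without wild-type replicate 1, the lowest library, these were 0.34 and 0.24. *Erbb2*, the co-receptor without a ligand of its own (chromosome 11, 98412470 to 98437716, plus strand), was at 16.51, 16.39 and 19.57 TPM in wild type, at 21.53, 20.74 and 20.66 TPM in heterozygous and at 24.73, 26.00 and 15.60 TPM in homozygous hearts. Homozygous replicate 3 was the lowest of all 9, and the other homozygous libraries were the highest. The log2 change between homozygous and wild type was 0.29 ± 0.18 (SE), with an adjusted p of 0.306, and it was 0.52 without that library and 0.16 without homozygous replicate 2.

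None of the 10 genes passed an adjusted p under 0.05 in any comparison. Between homozygous and wild type 46 of all genes tested passed, 0.336%. By unadjusted p under 0.05, 5 of the 10 were higher in homozygous hearts, where 22.9% of all genes were, and 2 of the 10 did not overlap the wild type and were higher, *Dll4* and *Notch2*, where 22.3% of all genes were. After median-ratio scaling *Jag1* was also higher without overlap and *Hey1* was lower, where 10.3% of all genes were higher and 12.2% lower. The median log2 change of the 10 was 0.47, against 0.23 over all genes, and 9 of the 10 were above zero, as were 81.7% of all genes. After quantile normalization 7 were above zero and the median was 0.20.

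For heterozygous against wild type 0.0146% of all genes passed the adjusted threshold. *Dll4*, *Notch2*, *Erbb2* and *Erbb4*, 4 of the 10 genes, were higher without overlap, against 12.8% of all genes, and 2 of the 10, *Dll4* and *Notch2*, were higher at an unadjusted p under 0.05, against 6.29% of all genes. After median-ratio scaling *Erbb2* and *Erbb4* overlapped the wild type, *Dll4* and *Notch2* did not, and *Hey1* was lower without overlap, where 6.07% of all genes were higher and 6.97% lower. The median log2 change of the 10 was 0.24, beside 0.15 over all genes. For homozygous against heterozygous 0.0439% of all genes passed. *Notch1* was the 1 gene of the 10 higher without overlap, where 12.0% of all genes were, and the 1 gene higher at an unadjusted p under 0.05, where 4.83% were. The median change of the 10 was 0.16, beside 0.08 over all genes. These comparisons share libraries, so their values are not independent of each other.

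**Figure D2:**
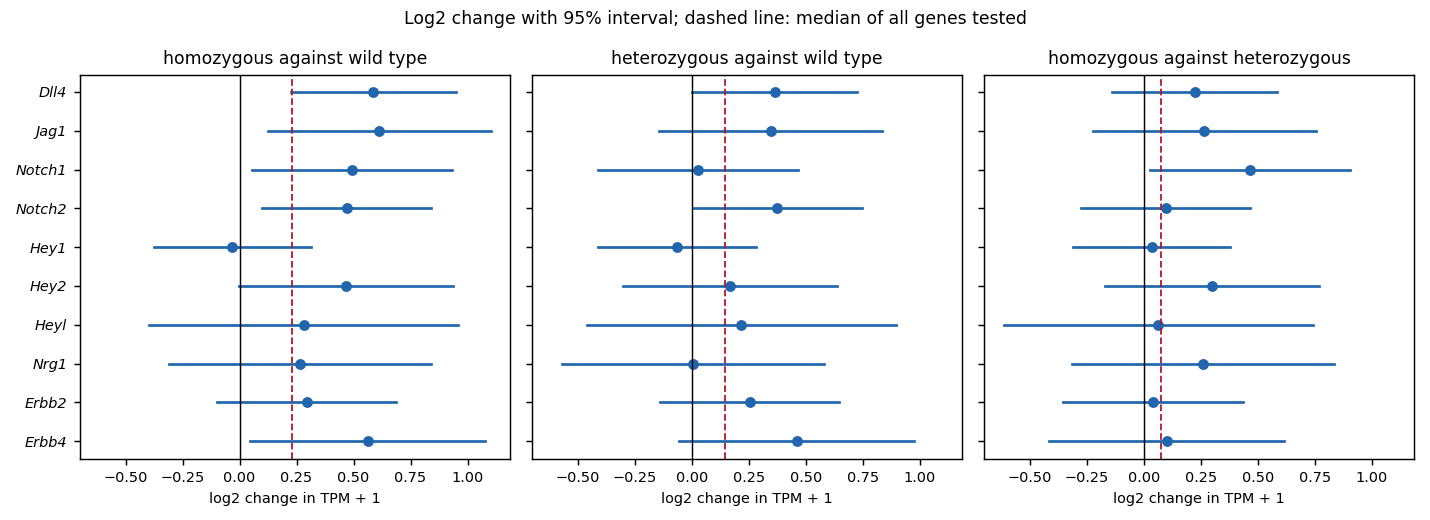
Log2 change in TPM + 1 of each gene (points) with its 95% interval (lines) in the 3 comparisons, with 3 libraries per group. The dashed line is the median of all 13682 genes tested, 0.23, 0.15 and 0.08 from left to right. Every interval holds that median, and *Hey1* is the 1 gene below zero in both comparisons with wild type, a sign that turned with library weights for homozygous hearts.

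Single libraries weighed on several genes at once. Homozygous replicate 2 held the highest value of 8 of the 10 genes and wild-type replicate 1 the lowest of 6, while homozygous replicate 3 held the lowest of 3 (*Hey1*, *Heyl* and *Erbb2*). The median of all genes was also highest in homozygous replicate 2, at 0.17 above its mean on the log2 scale, and lowest in wild-type replicate 1, at -0.23. The 10 genes had a median of 0.38 and -0.46 in the same libraries. Leaving out wild-type replicate 3 gave an adjusted p under 0.05 for 5 genes, namely *Notch1*, *Notch2*, *Dll4*, *Jag1* and *Hey2*, with 2170 of all genes called in place of 46. Weighting the libraries by their estimated precision gave 8 of the 10 with the default estimator, which stopped before converging and called 8755 of the 13682 genes. A gene-by-gene estimator chosen after seeing the data also gave 8, with 5068 of all genes called.

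**Figure D3:**
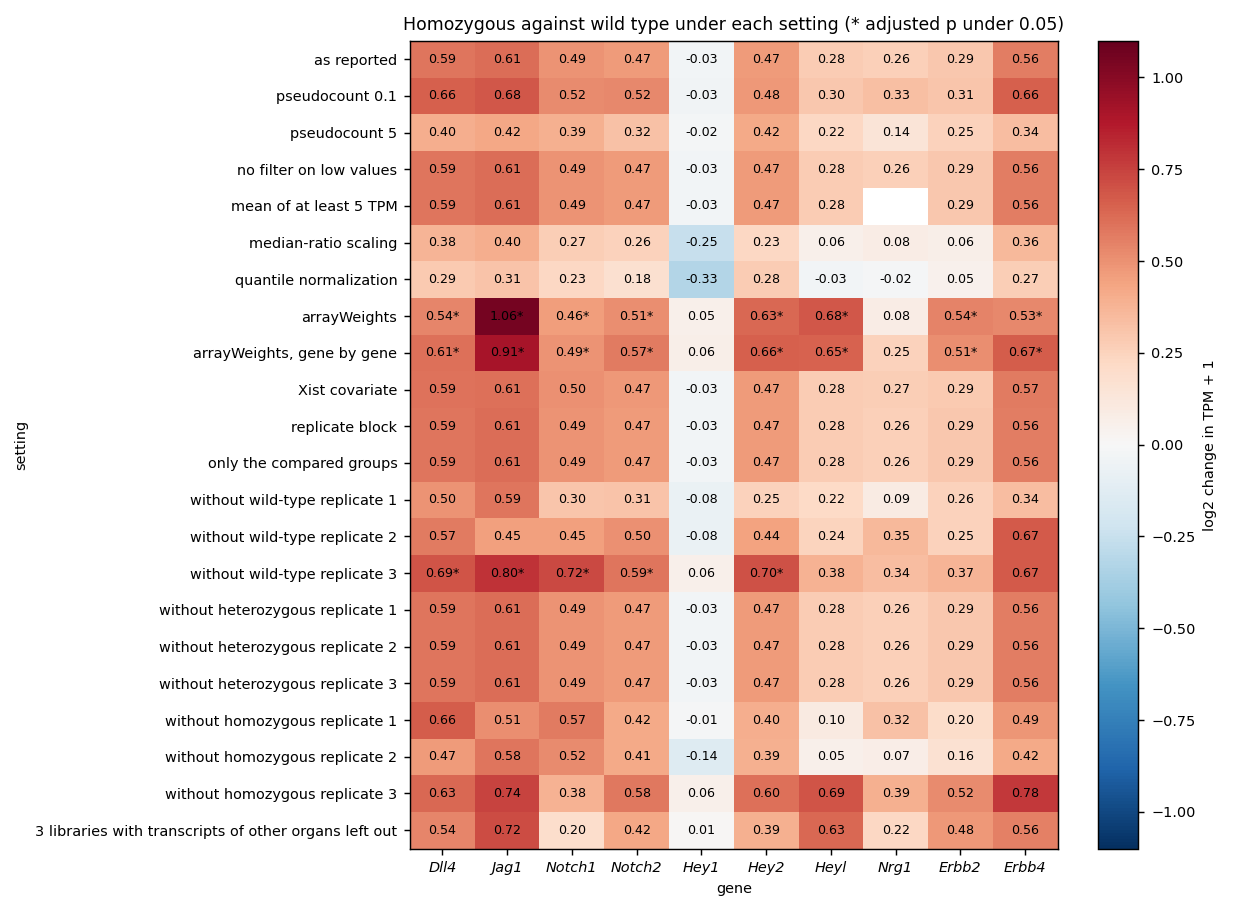
Log2 change in TPM + 1 between homozygous and wild-type hearts for each gene (columns) as reported and under each alternative (rows), printed in each cell and coloured from blue (lower) to red (higher). An asterisk marks an adjusted p under 0.05, seen for 8 genes with either kind of library weight and for 5 genes without wild-type replicate 3. *Nrg1* has no value where a mean of 5 TPM was required.

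Ratios of related genes within a library do not move with the scaling of that library. *Hey2* was 2.51, 3.30 and 3.88 times *Hey1* in the wild-type libraries, 3.73, 4.25 and 3.38 times in the heterozygous and 5.13, 4.25 and 4.31 times in the homozygous. All homozygous ratios were above all wild-type and all heterozygous ones, the closest pair being 4.25 in both mutant groups. The log2 ratio differed by 0.52 between homozygous and wild type, with an exact permutation p of 0.1 (two-sided), the smallest that 3 against 3 libraries allow, and 0.3 after adjustment over the 12 ratio comparisons.

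The ratio of *Notch1* to *Notch2* was lowest in heterozygous hearts. It was 1.89, 1.74 and 2.27 in wild type, 1.44, 1.49 and 1.53 in heterozygous and 1.60, 1.71 and 2.69 in homozygous hearts. The heterozygous libraries overlapped neither other group, and the log2 difference from wild type was -0.40 (exact permutation p = 0.1, adjusted p = 0.3). Homozygous and wild type differed by -0.0053, with overlapping libraries. That value depended on homozygous replicate 3, the library with thymocyte markers, which held the highest ratio of all. Without it the difference was -0.24, and the remaining homozygous ratios, 1.60 and 1.71, lay below all wild-type ones. *Dll4* to *Jag1* overlapped in all comparisons, with log2 differences from -0.05 to 0.02. *Erbb2* to *Erbb4* overlapped too, apart from wild-type replicate 1, whose ratio of 5.88 was above the 3.13 to 3.88 of the other libraries.

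**Figure D4:**
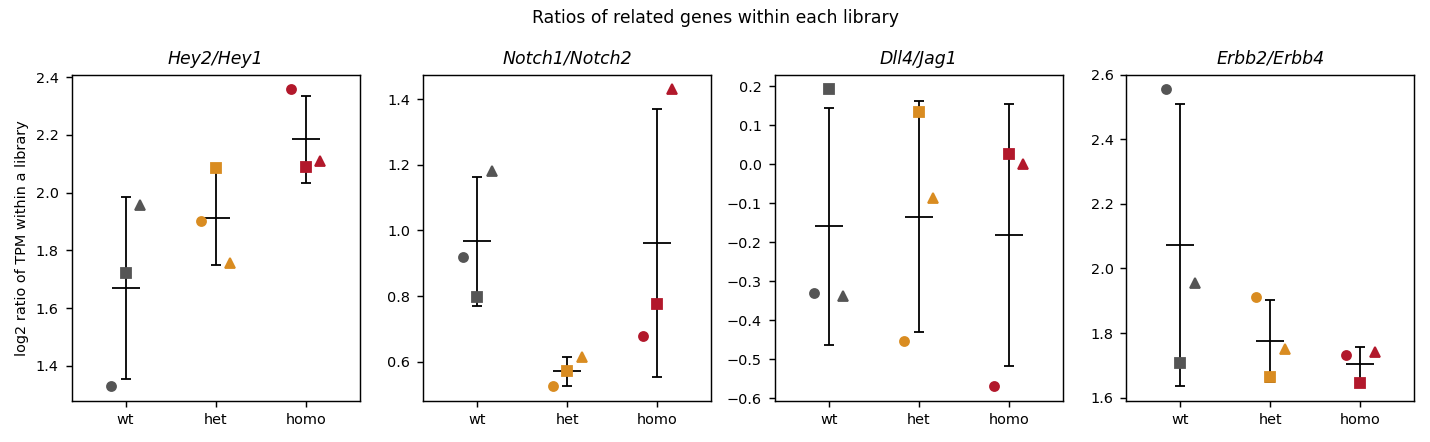
Log2 ratio of TPM of 4 gene pairs within each library (symbols), with the mean (horizontal bar) and SD (error bar) of 3 libraries per genotype. The homozygous *Hey2* to *Hey1* ratios, 2.09 to 2.36, lie above the wild-type ratios, 1.33 to 1.96, and the heterozygous *Notch1* to *Notch2* ratios lie below both other groups.

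The cell types that carry these genes also differed between libraries. Endocardial markers summed to 74.6 to 83.1 TPM in wild type, to 88.6 to 97.6 TPM in heterozygous and to 114, 114 and 59.1 TPM in homozygous replicates 1, 2 and 3. Relative to the mean of the endothelial markers, the homozygous libraries were above all wild-type libraries for *Dll4*, by 0.37 on the log2 scale, for *Jag1*, by 0.40, and for *Erbb4*, by 0.35. Relative to the cardiomyocyte markers this held for *Notch2*, *Dll4*, *Jag1*, *Hey2* and *Erbb4*, by 0.47 to 0.62. Each of these had an exact permutation p of 0.1, the smallest possible, and 0.25 after adjustment over 20 comparisons. The share of all genes without overlap in such ratios was not measured. ErbB4 was placed on cardiomyocytes above, so the ratio of *Erbb4* to endothelial markers is no level per cell that carries it. The mean log2 level of the cardiomyocyte markers was 10.18 in wild type and 10.17 in homozygous hearts. The ratios to these markers therefore nearly repeat the changes in TPM, with 0.59 for *Dll4* by either measure. *Hey1* was 0.25 lower relative to the endothelial markers, with overlapping libraries.

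In the wider pathway 1 gene passed the test. *Mfng*, which encodes a fringe enzyme that adds sugars to Notch receptors and changes which ligands they answer, was at 5.21, 5.11 and 6.34 TPM in wild type, at 7.80, 6.77 and 9.01 TPM in heterozygous and at 9.95, 14.67 and 12.70 TPM in homozygous hearts. The 3 genotypes did not overlap. Of all genes tested, 22.3% were higher without overlap for homozygous against wild type. The share was 12.0% for homozygous against heterozygous and 12.8% for heterozygous against wild type. How many genes were separate in all 3 comparisons at once was not measured. *Mfng* lies on chromosome 15 from 78755882 to 78773475 on the minus strand. It rose by 1.03 ± 0.17 on the log2 scale (SE) between homozygous and wild type, with an adjusted p of 0.0444, and its changes of 0.59 against heterozygous and of 0.43 for heterozygous against wild type did not pass. The call was held in 9 of 21 alternatives, with an adjusted p between 0.000226 and 0.221 and a change between 0.72 and 1.17. Without homozygous replicate 3, the library with thymocyte markers, the change was 1.0 (adjusted p = 0.0489).

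*Mfng* was 1 of 25 tested genes for Notch processing and modification, of which 24 had a change above zero, where 81.7% of all genes did, and 10 were higher in homozygous hearts without overlap, where 22.3% of all genes were. *Psen2*, a catalytic subunit of gamma-secretase, was at 5.71 to 10.06 TPM in wild type and at 11.48 to 14.55 TPM in homozygous hearts, a log2 difference of 0.77 ± 0.20 (SE, adjusted p = 0.103). The median of the list was 0.33, against 0.23 over all genes. The other Notch receptors and ligands comprised 5 tested genes, of which 0 passed and 5 had a change above zero, as most genes did, between 0.31 and 0.92. *Notch3*, the receptor of mural cells, was at 9.33 to 13.16 TPM in wild type and at 14.02 to 18.14 TPM in homozygous hearts (log2 difference 0.48, adjusted p = 0.148). Of the 31-base words of *Notch3*, 6.59% were shared, mainly with *Gm17276* on the opposite strand. *Notch4*, an endothelial receptor, differed by 0.46 with overlapping libraries, by 0.27 without wild-type replicate 1 and by 0.11 without the 3 libraries with markers of other organs.

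Nuclear factors and other targets of Notch gave 0 calls among 18 tested genes, with a median of 0.24, at the level of all genes. *Hes6*, a relative of the Hes repressors, was at 27.40 to 31.67 TPM in wild type and at 38.30 to 47.65 TPM in homozygous hearts without overlap, with a log2 difference of 0.56 ± 0.12 (SE, adjusted p = 0.0798). *Spen*, a co-repressor bound to RBPJ, differed by 0.55 with an adjusted p of 0.174, and by 0.25 without wild-type replicate 1. The other ErbB receptors and ligands had the lowest median of the lists, -0.21 over 6 tested genes with 0 calls. *Hbegf*, a ligand of ErbB4 and the EGF receptor, differed by -0.33 ± 0.19 (SE, adjusted p = 0.282), and by -0.15 without homozygous replicate 3.

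ErbB signalling genes and regulators gave 0 calls among 25 and a median of 0.11. *Pik3r1*, a regulatory subunit of PI3-kinase, was at 12.21 to 15.98 TPM in wild type and at 20.79 to 26.40 TPM in homozygous hearts, a log2 difference of 0.66 ± 0.16 (SE, adjusted p = 0.0961). *Sos1*, an exchange factor for Ras, differed by 0.51 (adjusted p = 0.153). Genes of trabecular and compact muscle gave 0 calls among 22 and a median of 0.22, against 0.23 over all genes. Of the 22, 16 had a change above zero and 6 below, from -1.64 to 0.97. The 2 with the largest change, named here, were both lower in homozygous hearts, unlike most of the list. *Nppb*, the natriuretic peptide of trabecular and stretched muscle, was at 911, 752 and 357 TPM in wild type and at 306, 129 and 200 TPM in homozygous hearts. Every homozygous library was below every wild-type one, with a log2 difference of -1.64 ± 0.37 (SE) and an adjusted p of 0.0882. *Adamts1*, a protease of the cardiac jelly, differed by -1.13, and its wild-type replicate 3, at 23.1 TPM against 90.7 and 93.7 TPM in the others, lay within the homozygous range of 19.2 to 30.5 TPM. Without that library the difference was -1.78.

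**Figure D5:**
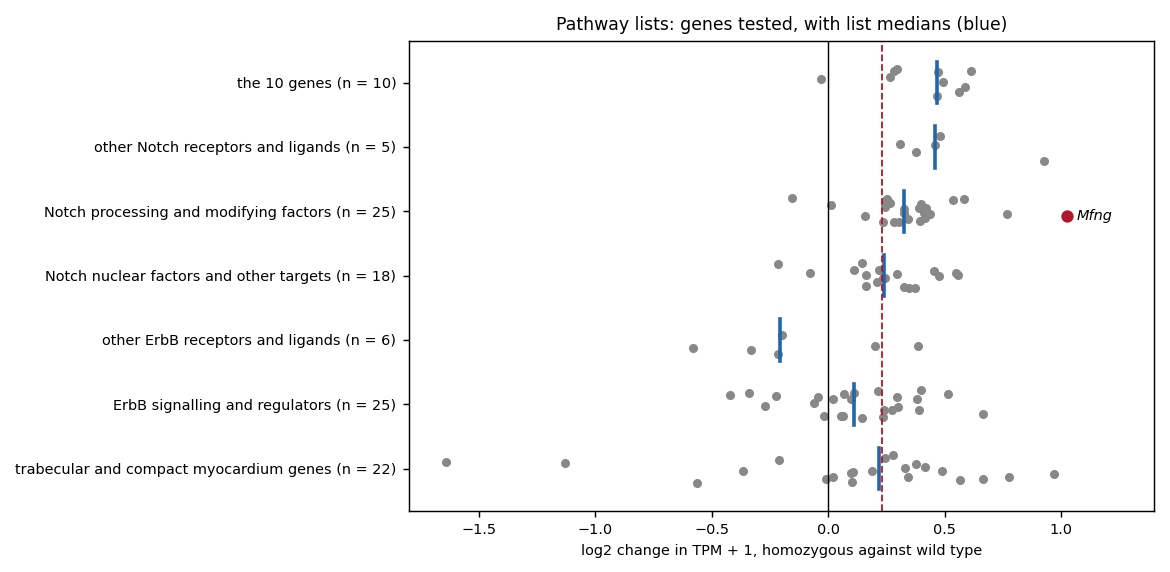
Log2 change in TPM + 1 between homozygous and wild-type hearts of each tested gene in 7 lists (points, spread vertically for legibility), with the median of each list (blue bar) and of all genes tested (dashed line, 0.23). *Mfng* (red) is the 1 gene with an adjusted p under 0.05, and the other ErbB receptors and ligands have a median of -0.21.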

How the data were processed

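Poly-A RNA of whole E18.5 hearts was sequenced in 9 libraries, 3 per genotype, grouped by their labels. The authors trimmed reads with Trim Galore, aligned them to mm10 with STAR and quantified genes with RSEM, and deposited TPM per gene and library. The annotation release is not given in the sources used here. The study's own test, DESeq2, needs counts and was not used. TPM keeps no depth, so no counting interval is given. Of 24597 symbols, 26 turned into dates were left out (at most 0.0921% of a library), and 0 columns were unmapped.

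Log2(TPM + 1) of the 13682 genes whose mean reached 1 TPM was fitted with limma 3.58.1 in R 4.3.3 over all 9 libraries (empirical Bayes with trend, two-sided), with Benjamini-Hochberg adjustment over all genes tested and a threshold of 0.05. A fold on this scale understates the change of low genes. The procedure was tested on simulated data with independent genes and no shift of whole libraries. That test therefore does not cover the differences between libraries described above. Ratios were compared by exact permutation tests. The genes and lists were chosen with earlier results of these data known, so no list was tested. Beside the 10 genes, the text names every list gene called and the 2 of each list with the largest change between homozygous and wild type among those averaging 5 TPM or more. Coordinates came from GENCODE M21 and promoters from RefSeq, which covered 7 of the 10. Overlap with other genes was measured as 31-base words shared between transcripts. Alternatives changed the pseudocount, filter, scaling, library weights, covariates and libraries.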

Additional observations from a re-analysis of the deposited data

How the results depend on the processing

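Of 627 repeats of the changes of the 10 genes, 559 kept their direction and side of the threshold, 25 gained a call and 43 turned sign, all of the latter in changes with an interval that held zero. The count of all genes called for homozygous against wild type, 46 as reported, was 22 without the filter, 229 with median-ratio scaling, 71 with quantile normalization, 11 with the compared groups alone, 11 without the 3 libraries with markers of other organs, and 13 to 2170 with 1 library left out. The count of all genes called for homozygous against heterozygous, 6 as reported, was 2 with a pseudocount of 5, 2 without the filter, 15 with median-ratio scaling, 11 with quantile normalization, 0 with *Xist* as a covariate, 0 with the compared groups alone, and 1 to 6 with 1 library left out. The count of all genes called for heterozygous against wild type, 2 as reported, was 1 with a pseudocount of 0.1, 1 with a mean of at least 5 TPM, 5 with median-ratio scaling, 4 with quantile normalization, 1 with *Xist* as a covariate, 0 with the compared groups alone, 5 without the 3 libraries with markers of other organs, and 1 to 6 with 1 library left out. Quantile normalization moved the median change of the 10 genes between homozygous and wild type to 0.20, and median-ratio scaling put 187 of 229 calls on the lower side, where 20 of 46 were lower as reported. Library weights by the default estimator of arrayWeights, which stopped before converging, gave 8755, 234 and 4425 calls in the 3 comparisons in that order, 8 of the 10 genes for homozygous against wild type and 4 for heterozygous against wild type. The gene-by-gene estimator, added after those counts had been seen, gave 5068, 43 and 4 calls and 8 and 0 of the 10 genes. Leaving out 1 library gave 0 to 5 of the 10 for homozygous against wild type, with 5 without wild-type replicate 3. The cause was not tested. For homozygous against wild type, where signs turned, *Hey1* was 0.053 with library weights, 0.061 with gene-by-gene weights, 0.014 without the 3 libraries and -0.14 to 0.059 with 1 library left out. *Heyl* was -0.032 with quantile normalization. *Nrg1* was -0.016 with quantile normalization. For homozygous against heterozygous, where signs turned, *Notch2* was -0.019 with quantile normalization and -0.0028 with the *Xist* covariate. *Hey1* was -0.038 with median-ratio scaling, -0.076 with quantile normalization, -0.034 with the *Xist* covariate and -0.078 to 0.12 with 1 library left out. *Heyl* was -0.010 with median-ratio scaling, -0.058 with quantile normalization and -0.16 to 0.47 with 1 library left out. *Erbb2* was -0.036 with median-ratio scaling, -0.040 with quantile normalization and -0.088 to 0.26 with 1 library left out. *Erbb4* was -0.016 with quantile normalization, -0.040 with the *Xist* covariate and -0.042 to 0.32 with 1 library left out. For heterozygous against wild type, where signs turned, *Notch1* was -0.12 with median-ratio scaling, -0.15 with quantile normalization, -0.14 without the 3 libraries and -0.16 to 0.26 with 1 library left out. *Hey1* was 0.0046 with the *Xist* covariate and -0.15 to 0.025 with 1 library left out. *Hey2* was -0.046 to 0.40 with 1 library left out. *Nrg1* was -0.12 with median-ratio scaling, -0.16 with quantile normalization, -0.20 with library weights, -0.068 with gene-by-gene weights, -0.013 without the 3 libraries and -0.21 to 0.16 with 1 library left out. Among the log2 ratios, signs turned with 1 library left out over -0.24 to 0.14 for *Notch1* to *Notch2*, homozygous against wild type. The range was -0.11 to 0.20 for *Dll4* to *Jag1*, heterozygous against wild type. The range was -0.13 to 0.17 for *Dll4* to *Jag1*, homozygous against wild type. The range was -0.20 to 0.15 for *Dll4* to *Jag1*, homozygous against heterozygous. The range was -0.031 to 0.17 for *Nrg1* relative to endothelial markers, homozygous against wild type. The range was -0.078 to 0.048 for *Hey1* relative to cardiomyocyte markers, homozygous against wild type. The range was -0.065 to 0.28 for *Heyl* relative to endothelial markers, homozygous against wild type. The range was -0.026 to 0.44 for *Notch1* relative to endothelial markers, homozygous against wild type. *Notch1* to *Notch2* for homozygous against wild type was 0.022 with a pseudocount of 1. *Mfng* kept its direction in every alternative and lost its call in 12 of 21. Same-numbered libraries of different genotypes did not all deviate together, with correlations of deviations over genes from -0.03 to 0.36, and not every library was closest to its own number, so the numbers were not taken as pairs. A replicate block gave 17, 1 and 1 calls of all genes and 0 of the 10. The read depth behind these TPM values is unknown, so what it limits could not be measured.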

Other observations

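For the 3 genes with the largest change between homozygous and wild type, the genes with the most similar profile were sought among 9943 others with a mean of at least 5 TPM, by the root-mean-square difference of centred log2(TPM + 1) over the 9 libraries. *Dll4* was closest to *Phf8*, a histone demethylase, at 0.069, then to *Cpt1a*, the carnitine palmitoyltransferase of fatty acid oxidation, at 0.074, and *Zmym3* at 0.077, where the median gene was at 0.24. *Jag1* was closest to the adaptor gene *Nck1*, at 0.11, then to *Psen2*, at 0.12, and *Wdr6*, at 0.13, with a median of 0.29. *Erbb4* was closest to *Map1b*, a microtubule-associated protein, at 0.079, then to the guidance ligand *Slit2*, at 0.087, and *Zak*, at 0.094, with a median of 0.30. Among the 10 genes themselves, *Notch2* and *Erbb4* were the closest pair, at 0.13, and *Notch1* and *Heyl* the farthest apart, at 0.49. These are descriptions of 9 libraries that also share the displacement of all genes.

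Markers of Schwann cells, which also carry ErbB receptors, summed to 12.3 to 16.4 TPM in wild type and to 14.3 to 18.3 TPM in homozygous hearts. Mural and smooth muscle markers summed to 625 to 772 TPM in wild type and to 415 to 602 TPM in homozygous hearts. Most of that sum was *Acta2*, at 444 to 547 TPM and at 196 to 366 TPM, and of the 9 markers 5 had a log2 change above zero and 4 below, with a median of 0.22 and a range from -1.23 to 0.46. None of them passed the test. Thymic epithelium markers summed to 439 TPM in homozygous replicate 3 and to 99.0 to 132 TPM elsewhere, and neuron markers to 3.38 to 9.05 TPM over all libraries.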
